A study of Arabidopsis thaliana with 18 samples.

Results

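The transgenic line xct-1 XCT::SpXAP5 of Arabidopsis thaliana was compared with the wild type Col-0. The line is the mutant xct-1 carrying a transgene labelled XCT::SpXAP5, so the xct-1 allele is present in all of its libraries and in none of those of Col-0. Libraries were assigned by their titles, and 3 libraries of the line and 3 of Col-0 were found among the 18 of the series, which holds 6 genotypes. The 3 libraries of xct-1 without the transgene served as a second reference. The remaining genotypes, xct-2, xct-2 XCT::XCT and prl1-2, entered the filter and the shared fits, and some of their values are given as a description. Each library came from whole seedlings stratified for 3 days and then kept at 22 °C under unbroken light (55 µmol per square metre and second). Harvests of day 11, spaced by 2 h across 24 h, went into 1 pool, which averages any daily rhythm, and another label gives the age as 10 days. The labels do not say what drives the transgene, how many transformants it stands for or whether they were tested for its expression. Transcripts were read by PacBio Iso-Seq, whose long reads can cover every exon of a transcript.

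XCT (XAP5 CIRCADIAN TIMEKEEPER) is a nuclear protein of a family that is conserved among eukaryotes, and it was first described for its effect on the pace of the plant circadian clock. During splicing an intron is cut out at its 5′ and 3′ splice sites, and the exons on either side are joined. A cell that picks another 3′ site changes where the next exon begins. Use of a 3′ site downstream of the usual one removes the first bases of that exon from the messenger RNA, and it keeps the reading frame when their number is a multiple of 3.

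The line had between 842112 and 913608 reads on genes per library, and Col-0 between 702992 and 913488. Junction reads per gene read were 9.96, 11.0 and 11.1 in the line and 8.81, 7.93 and 11.5 in Col-0. Col-0 replicate 3 thus lay above all libraries of the line, and its 2 fellows lay below all of them. Of the tissue markers, the shoot genes RBCS1A, CAB1 and RCA averaged 817 ± 149, 1717 ± 343 and 1592 ± 263 CPM (reads scaled to a library size common to all libraries) in the line and 988 ± 163, 3400 ± 1247 and 2460.5 ± 945 CPM in Col-0 (SD, n = 3 each). The root gene PYK10 averaged 1166 ± 47.4 CPM in the line and 1946 ± 646 CPM in Col-0. The root gene TIP2;3 had 0, 1 and 0 reads in the line and 3, 3 and 2 in Col-0. The seed gene CRA1 and the flower gene AP1 had 0 reads in all of these libraries. TIP2;3 was below the filter of the gene test, none of the 4 shoot and root markers tested was called, and their part in the results below was not tested. In bulk tissue, fewer cells of a type and less RNA per cell cannot be told apart.

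The mutated gene was examined first. XCT (AT2G21150, chromosome 2, plus strand) had 7, 8 and 2 reads in the line, 11, 68 and 10 in xct-1 and 8, 16 and 2 in Col-0. At this depth no difference in its level was detectable between the line and Col-0 (7.87 ± 4.17 CPM against 9.83 ± 7.98 CPM; log2 fold change -0.33, SE 0.70, edgeR's quasi-likelihood test, adjusted p 0.788). The seventh of its 11 annotated junctions, the intron from 9067108 to 9067195 (1-based positions, build TAIR10 per the submitters' processing notes, as for all positions here), set the genotypes apart. It was present in 0 of 17 XCT reads of the line and in 0 of 89 of xct-1, but in 26 of 26 of Col-0. The 0 in the line allows a share of up to 17.6% (3 reads, counting error only), and the adjusted p of the junction was 0.000371 (edgeR). The other 10 junctions were found in 70.6% to 100% of the XCT reads of the line, and none of them passed the test. No counted feature stands for SpXAP5, and the transcript of the transgene was not analysed here.

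**Figure D1:**
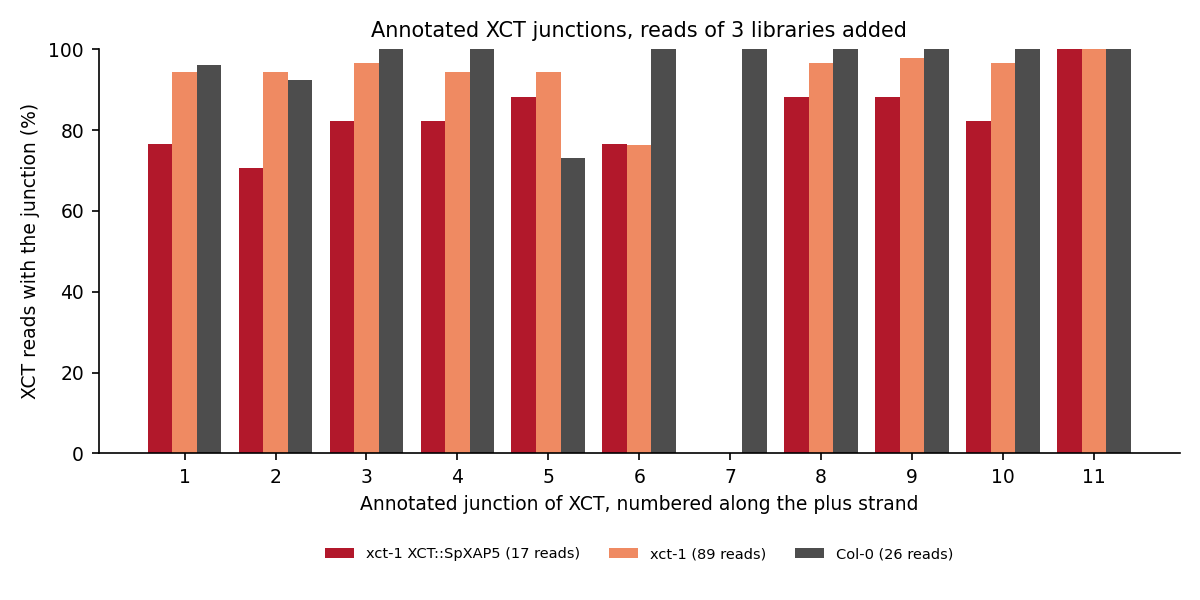
Percent of XCT reads that hold each of its 11 annotated junctions (vertical axis), with the junctions numbered along the plus strand (horizontal axis) and the reads of 3 libraries added per genotype. The seventh junction is at 0 in xct-1 XCT::SpXAP5 (17 reads) and in xct-1 (89 reads) and at 100% in Col-0 (26 reads), while the others are present in all 3 genotypes.

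Junctions were counted by the authors as annotated, when the gene models hold them, or unannotated. Over whole libraries, unannotated junctions took 1.17%, 1.24% and 1.25% of the junction reads of the line, against 0.894%, 0.802% and 1.16% in Col-0. All libraries of the line lay above all of Col-0, by as little as 0.0077 percentage points between the nearest pair. The mean difference was 0.269 points, and the two-sided exact permutation test gave p = 0.1, the smallest that 3 libraries against 3 allow, and 0.22 after Benjamini-Hochberg adjustment over the 11 measures of this kind. Col-0 replicate 3, which had the most junctions per read, was the Col-0 library nearest to the line.

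Among the classes by position, 1 stood out by its ratio. Unannotated junctions that keep the annotated 5′ site and end at a 3′ site 11 to 40 bases downstream of the annotated one took 0.132%, 0.141% and 0.142% of the junction reads of the line and 0.0416%, 0.0341% and 0.0581% of those of Col-0. The lowest library of the line was 0.0735 points above the highest of Col-0, and the means stood at a ratio of 3.10 (exact permutation p = 0.1, adjusted 0.22). The same class took 0.125%, 0.0818% and 0.146% in xct-1, a range that spans the libraries of the line. In the remaining genotypes its mean share was 0.195% in xct-2, 0.0486% in the xct-2 XCT::XCT line and 0.0468% in prl1-2. As a share of the unannotated reads of each library, the class took a mean of 11.2% ± 0.0357 in the line, 10.7% ± 0.589 in xct-1 and 4.60% ± 0.373 in Col-0 (SD, n = 3 each), a measure added after the values were seen.

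Other classes differed less. Sites 1 to 10 bases downstream took a mean share of 0.127% of junction reads in the line and 0.0887% in Col-0, a ratio of 1.43, and the libraries did not overlap (exact permutation p = 0.1, adjusted 0.22). Sites 1 to 10 bases upstream took 0.106% in the line and 0.0941% in Col-0, and unannotated 5′ sites 0.331% in the line and 0.292% in Col-0. In both of these classes the libraries overlapped (exact permutation p = 0.4 each, adjusted 0.4).

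**Figure D2:**
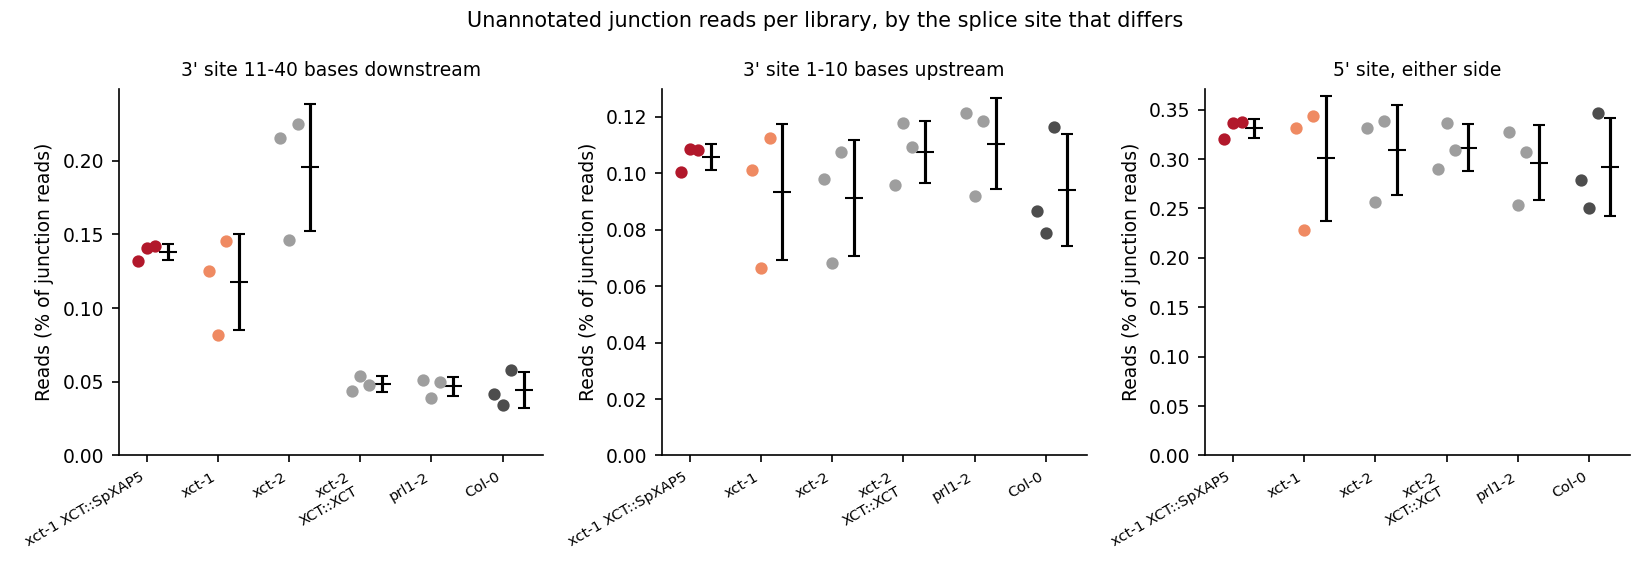
Reads on 3 classes of unannotated junctions as a percent of junction reads (vertical axes, from 0), with 1 point per library and, beside the points, the mean with SD of 3 libraries for each of the 6 genotypes (horizontal axes). In the class 11 to 40 bases downstream, the 3 libraries of xct-1 XCT::SpXAP5 lie between 0.132% and 0.142%, within the range of xct-1 and above all 3 of Col-0, whereas in the other 2 classes the line and Col-0 overlap.

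Individual junctions were then tested. Usage of a junction is given as the percent of its gene's reads that hold it, and the test compared reads with and without the junction between the genotypes (edgeR's quasi-likelihood test, Benjamini-Hochberg adjustment over all junctions, called at an adjusted p under 0.05). Of 50590 junctions in 8509 genes, 577 were called in 371 genes, which is 1.14%. In the line 391 of these were used more and 186 less than in Col-0. In 574 the libraries of the line and Col-0 did not overlap, which describes the calls, since the same libraries made them. Non-overlap was not counted over all junctions tested. Without Col-0 replicate 3 the count was 1027, with 794 used more and 233 less. With the gene count as an offset the split was 371 used more and 78 less. With only reads at the same splice site as the denominator it was 618 and 589, and near-equal numbers are built into that measure.

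Rises and falls fell on different kinds of junction. Of the 3702 unannotated junctions tested, 374 were used more in the line (10.1%) and 7 less. Of the 46888 annotated junctions, 179 were used less (0.382%) and 17 more. Among the 374, usage had a median of 5.65% in the line (quartiles 2.32% and 12.2%) and of 0% in Col-0, where 202 of them had no read in any library. In the line 108 of the 374 reached a usage of 10% or more, 25 reached 30% or more, and 38 stayed under 1%. The 179 annotated junctions used less had a median of 79.2% in the line and 97.5% in Col-0. The filter asked for 20 reads summed over all 18 libraries, so a junction without Col-0 reads passed it only through other genotypes, and no source used here says how unannotated junctions entered the catalogue. The share of unannotated junctions that was called therefore holds for this catalogue.

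**Figure D3:**
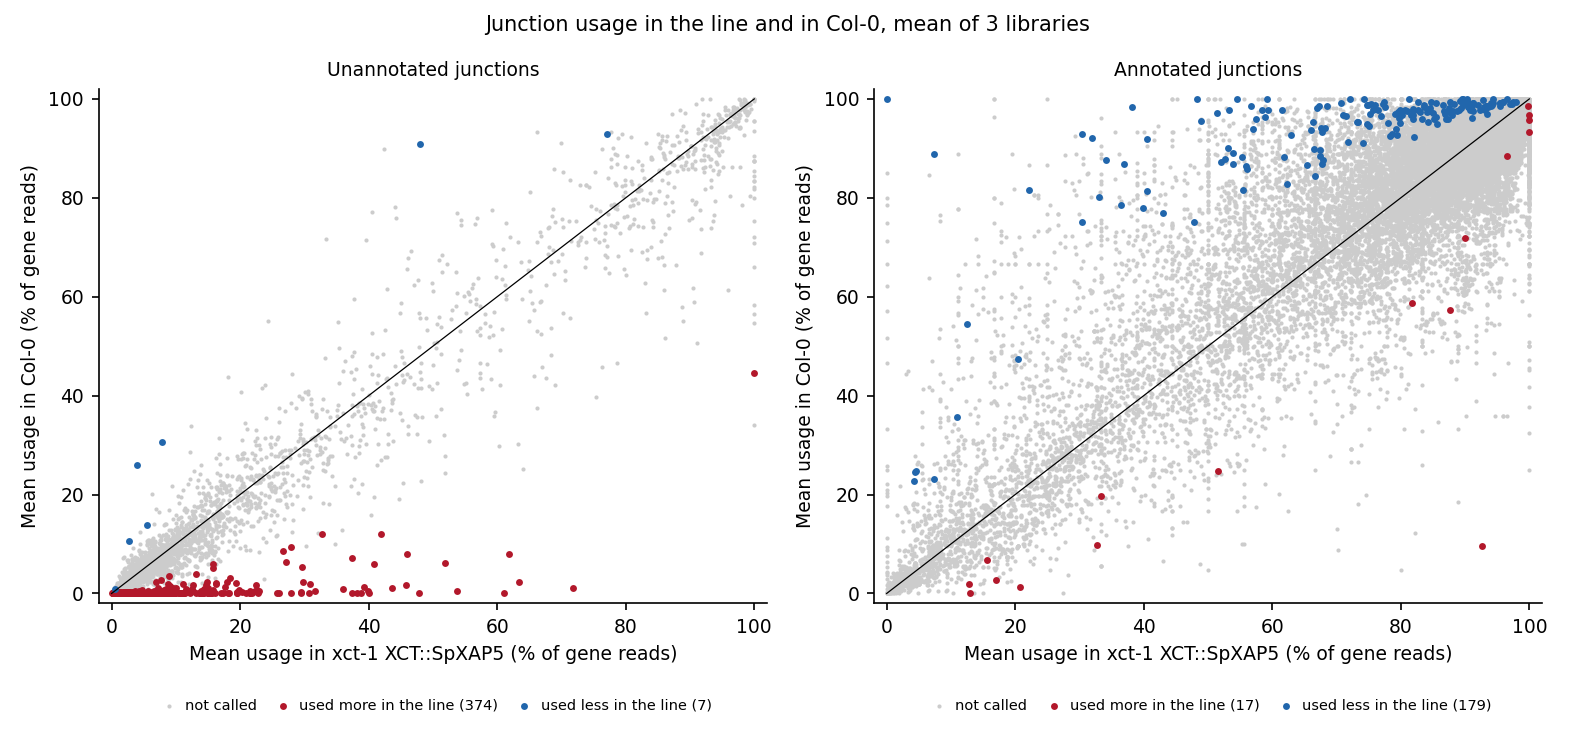
Mean usage of each tested junction over 3 libraries of xct-1 XCT::SpXAP5 (horizontal axis) and of Col-0 (vertical axis), in percent of the gene's reads, for unannotated (left) and annotated junctions (right), with the diagonal as a line of equal usage. All but 1 of the 374 unannotated junctions used more lie along the foot of the left panel, low in Col-0, and most of the 179 annotated junctions used less lie near the top of the right panel, with a median of 97.5% in Col-0.

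The rises lay almost entirely at 3′ sites. Of the 374, 370 shared the annotated 5′ site and ended at another 3′ site, and 365 of those 370 ended downstream of the annotated one. The median distance over the 370 was 19 bases downstream (quartiles 14 and 27), and the most frequent distance was 15 bases, with 31 junctions. Tested 3′ sites that were not called had a median of 3 bases (quartiles -9.75 and 10, upstream negative). By class, 305 of 499 tested sites 11 to 40 bases downstream were used more, against 25 of 563 at 1 to 10 bases and 35 of 212 at more than 40 bases. Upstream of the annotated site 5 of 606 were used more, and of 1196 unannotated 5′ sites 1 was called. These counts describe the catalogue under the filter above and were not tested against each other.

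The frame and the length of the intron were described in the same way. Of the 365 downstream sites used more, 156 lay a multiple of 3 bases from the annotated site (42.7%). Of all 1274 downstream sites tested, 427 did. Within 11 to 40 bases, 131 of 192 tested sites at a multiple of 3 and 174 of 307 at other distances were used more. By the length of the annotated intron, the sites used more were 66 of 195 for introns up to 80 bases, 193 of 583 for 81 to 120 bases, 77 of 336 for lengths above 120 and up to 300 bases and 29 of 160 for longer ones.

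**Figure D4:**
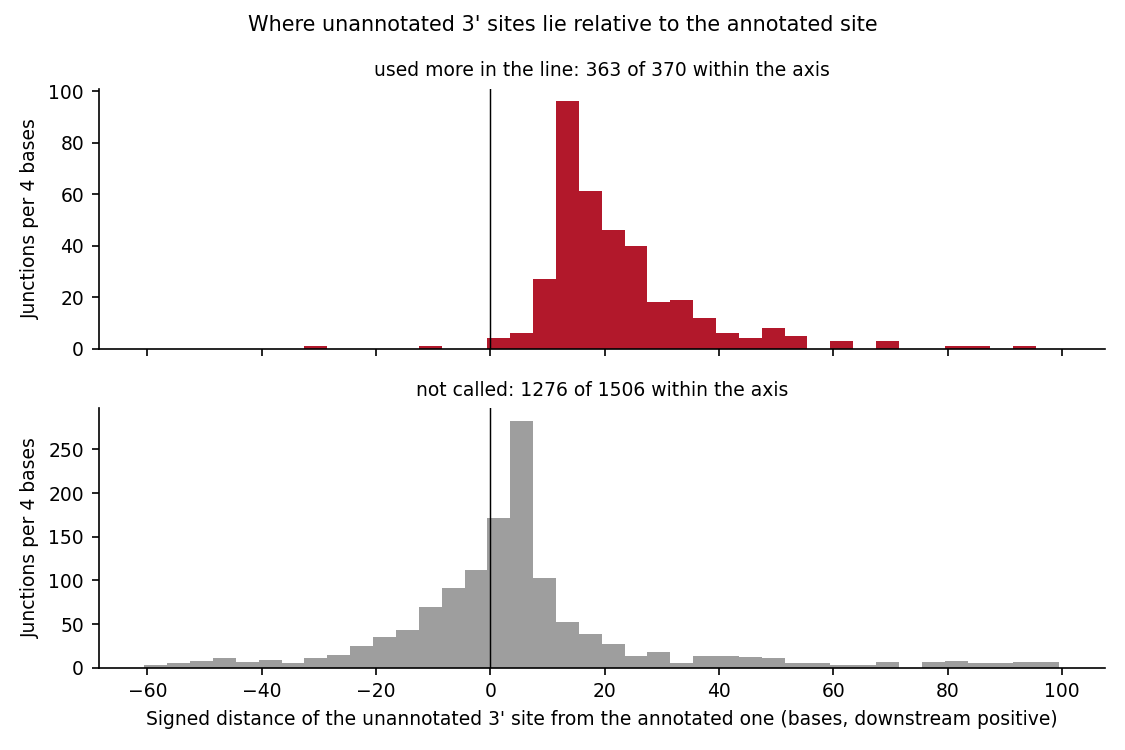
Number of unannotated 3′ sites (vertical axes, in bins of 4 bases) by their signed distance from the annotated 3′ site in bases (horizontal axis, downstream positive), for sites used more in xct-1 XCT::SpXAP5 (top) and sites not called (bottom). Of the sites used more, 363 of 370 lie within the axis and pile up downstream around their median of 19 bases, while the sites not called (1276 of 1506 within the axis) lie on both sides of the annotated site.

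Most of the annotated junctions that lost use were the counterparts of these sites. The annotated junction with the same 5′ site could be tested for 364 of the 370 called 3′ sites, as 355 distinct junctions. Of these 355, 111 were called used less, against 0.382% of all annotated junctions tested, and 320 had a log2 odds change below 0. The share below 0 was not counted over all junctions tested, whose median change was 0.03. The 355 were chosen through a called rise at the same 5′ site, so falls among them are partly built in. The other 68 of the 179 annotated junctions used less had no called unannotated 3′ site of their own. Of the 68, 13 lay in a gene with such a site elsewhere, and 3 shared their 5′ site with an annotated junction that was used more, each time with the 3′ site that lost use lying upstream. XCT's seventh junction is 1 of the 68.

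The 10 rises with the smallest p all lay at downstream 3′ sites that Col-0 used rarely or not at all. UBP13 (AT3G11910, chromosome 3, minus strand), a deubiquitinase, had an unannotated intron from 3768304 to 3768410 with its 3′ end 30 bases past the annotated one. Usage reached 35.1%, 36.3% and 45% in the line and 0 in each library of Col-0 (374 of 957 reads against 0 of 668). All libraries of the line were high, and usage was at least 87.0-fold higher than in Col-0, whose 3 libraries were together set to a floor of 3 reads (adjusted p 1.04e-07, edgeR). Its annotated counterpart fell to 56.9% ± 4.61 in the line, against 94.0% ± 1.94 in Col-0 (SD, n = 3 each; change in log2 odds -3.63, SE 0.44, adjusted p 1.24e-05, edgeR).

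In ABCB26 (AT1G70610, chromosome 1, plus strand), an ATP-binding cassette transporter, both sites were in common use in the line. Its unannotated intron from 26623857 to 26624028 ended 19 bases downstream and was at 40.2%, 50% and 53.3% in the line and at 0 in each Col-0 library (122 of 262 reads against 0 of 476). Usage was at least 73.9-fold higher in the line (adjusted p 6.96e-08, edgeR). The annotated intron was at 59.1% ± 2.12 in the line and at 100% in each Col-0 library (adjusted p 3.04e-07, edgeR). Usages at 1 intron can add to more than 100%, because the deposited gene and junction counts are separate.

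ATX2 (AT1G05830, chromosome 1, plus strand), a trithorax-like histone methyltransferase, used an intron from 1757389 to 1757750 with a 3′ site 17 bases downstream. Its usage was 44.4%, 37.1% and 38.4% in the line and 1.11%, 0% and 0.452% in Col-0 (change in log2 odds 6.82, SE 0.53, adjusted p 2.27e-08, edgeR). All 3 libraries of the line thus stood far above those of Col-0, and the annotated intron was at 57.5% ± 4.09 in the line and at 95.9% ± 1.60 in Col-0. AT4G38350 (chromosome 4, minus strand) had an intron from 17962558 to 17962976 that ended 68 bases downstream, the longest distance among the 10 rises named by smallest p. It was at 30.9%, 29.4% and 28.2% in the line and at 0 in Col-0 (395 of 1344 reads against 0 of 1268), at least 124-fold higher (adjusted p 1.04e-08, edgeR).

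In genes with many reads, low usage could also be resolved. TIC (TIME FOR COFFEE, AT3G22380, chromosome 3, plus strand), a regulator of the clock and of metabolism, used an intron from 7914203 to 7914295 that ended 18 bases downstream at 12.5%, 12.5% and 11.6% in the line and at 0.250%, 0% and 0.429% in Col-0. The groups were far apart, with a change in log2 odds of 5.54 (SE 0.37, adjusted p 4.31e-09, edgeR). ATH13 (AT5G64940, chromosome 5, plus strand), an ABC1-like protein named for oxidative stress, used an intron from 25949812 to 25949910 with a shift of 15 bases at 15.0% ± 0.513 in the line and 0.0344% ± 0.0596 in Col-0 (SD, n = 3 each; adjusted p 4.31e-09, edgeR). EMB2753 (AT1G80410), a subunit of the protein N-terminal acetyltransferase, and KAC1 (AT5G10470), a kinesin-like protein of chloroplast movement, had sites at 5.35% ± 0.482 and 13.9% ± 0.720 in the line, at least 72.2 and 90.8 times the level in Col-0, which had no such read. CEV1 (AT5G05170), a catalytic subunit of cellulose synthase in primary walls, had 1 at 3.43% ± 0.321 in the line and none in 6964 reads of Col-0, at least 79.0-fold higher (adjusted p 2.02e-08, edgeR).

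GLU1 (AT5G04140, chromosome 5, plus strand), the ferredoxin-dependent glutamate synthase, held 8 of the 374 junctions, the most of any gene, 1 of them among the 10 rises named by smallest p. The other 7 are described after their values were seen. Of these, the intron shifted by 16 bases had an adjusted p of 2.30e-08 (edgeR), below those of ABCB26, KAC1 and UBP13. It was passed over because at most 1 junction per gene was taken. All 8 used a downstream 3′ site, at 8 to 28 bases. The most used of them, an intron from 1131786 to 1132026 shifted by 14 bases, was at 1.29%, 1.43% and 1.26% in the line and 0.0385%, 0.0896% and 0.0264% in Col-0 (change in log2 odds 5.02, SE 0.35, adjusted p 1.24e-08, edgeR). Non-overlap of the libraries was a condition for naming this junction. Its annotated counterpart was at 94.0% ± 0.5 in the line and 92.7% ± 4.00 in Col-0 and did not pass the test (adjusted p 0.942, edgeR). With 29001 reads in the line, a usage as low as 0.122% could be called in GLU1. AT1G02080 (chromosome 1) held 5 junctions, and 47 of the 303 genes with a called rise held more than 1.

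The largest rises in percentage points were found in genes with fewer reads. AT1G52510 (chromosome 1, minus strand) used an intron from 19564083 to 19564194 with a shift of 13 bases at 78.6%, 66.7% and 70.0% in the line and 1.82%, 1.39% and 0% in Col-0 (28 of 39 reads against 2 of 150; adjusted p 8.35e-06, edgeR). Its annotated intron was at 30.5% ± 9.29 in the line and 92.9% ± 5.33 in Col-0 (adjusted p 0.000352, edgeR), so the downstream site was the main one in the line and the annotated one in Col-0. CAT2 (AT1G58030), a cationic amino acid transporter, had a site 20 bases downstream at 58.3%, 75% and 50% in the line and at 0 in Col-0, at least 67.3-fold higher (adjusted p 1.11e-06, edgeR). Its annotated intron was at 38.1% ± 13.98 in the line and 98.3% ± 1.87 in Col-0 (adjusted p 5.58e-06, edgeR). AT4G11670 had a site 13 bases downstream at 61.8% ± 4.04 in the line and 8.05% ± 2.07 in Col-0, and AT5G56850 a site 16 bases downstream at 63.4% ± 13.8 in the line and 2.33% ± 2.96 in Col-0 (SD, n = 3 each; adjusted p 5.58e-06 and 2.19e-05, edgeR). In AT2G33435, the remaining gene with a rise of this size, the junction had more reads than its gene and the libraries overlapped, so its usage of 100% in the line is a ceiling. That call was lost with the gene count as an offset (adjusted p 0.353, edgeR) and without the line's replicate 2 or Col-0 replicate 1 or 2 (0.0540, 0.132 and 0.0693).

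**Figure D5:**
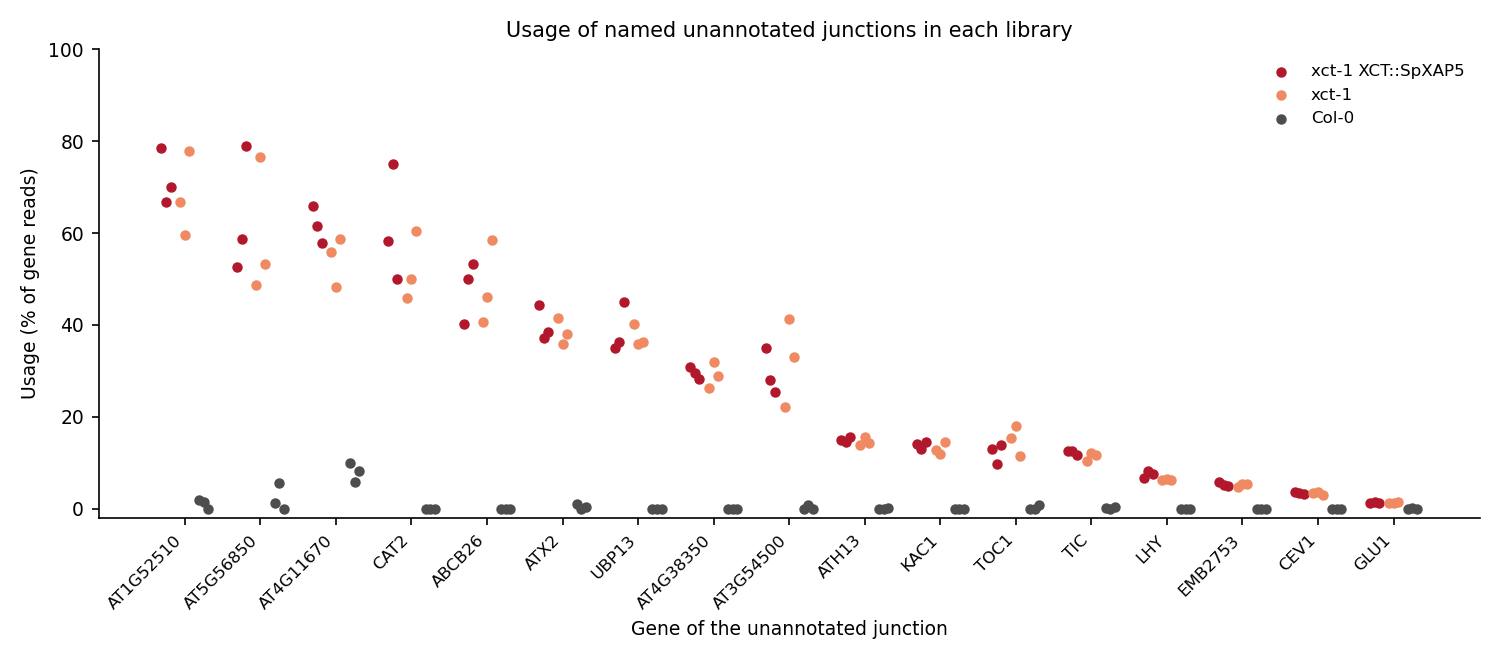
Usage of 17 named unannotated junctions in percent of the gene's reads (vertical axis), with 1 point per library for xct-1 XCT::SpXAP5, xct-1 and Col-0 from left to right within each gene (horizontal axis, ordered by the mean in the line; AT3G54500 is LNK2). The points of the line overlap those of xct-1 in each gene but LHY, and all points of the line lie above all points of Col-0.

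The 6 falls of annotated junctions named outside these genes ranged from -51.5 to -21.8 percentage points. In AT4G23050 (chromosome 4, plus strand), an intron from 12081944 to 12082070 was in 39.5%, 42.9% and 39.0% of the reads of the line and in 90.6%, 95.3% and 90.0% of those of Col-0 (change in log2 odds -4.03, SE 0.43, adjusted p 2.21e-06, edgeR). In AT5G57250 a junction was at 59.3% ± 2.98 in the line and 97.8% ± 1.96 in Col-0, and in AT4G33500 1 was at 61.5% ± 7.32 in the line and 97.7% ± 1.61 in Col-0. In AT1G18160, AT2G20050 and AT4G11270 the values were 71.0% ± 0.639, 77.4% ± 3.29 and 77.2% ± 0.873 in the line and 96.7% ± 1.61, 99.4% ± 0.566 and 99.04% ± 0.621 in Col-0 (SD, n = 3 each). With only reads at the same splice site as the denominator, the log2 odds of these 3 changed by -9.72, -8.82 and -9.36. Those of AT5G57250 and AT4G33500 changed by -5.36 and -6.13. In these 5 genes other junctions at the same site thus gained reads relative to the annotated one. The junction of AT4G23050 was not tested that way. Non-overlap of the libraries was a condition for naming these 6 genes.

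In some genes use moved between 3′ sites that the annotation or Col-0 already holds. On the plus strand of chromosome 5, in AT5G11580, the unannotated intron from 3719268 to 3719532 was at 3.91% ± 1.63 in the line and 26.0% ± 2.16 in Col-0 (change in log2 odds -2.98, SE 0.64, adjusted p 0.0114, edgeR). The annotated intron from 3719268 to 3719542, whose 3′ site lies 10 bases further downstream, rose to 87.7% ± 2.60 in the line, against 57.4% ± 0.532 in Col-0 (adjusted p 0.00284, edgeR). CTC1 (AT4G09680), a protein of telomere ends named here after its values were seen, had the same geometry: the site 10 bases upstream was at 2.76% ± 0.196 in the line and 10.6% ± 2.30 in Col-0, and the annotated one at 90.1% ± 2.11 in the line and 71.8% ± 6.79 in Col-0 (adjusted p 0.0319 and 0.0105, edgeR). The first of these calls in CTC1 was lost without the line's replicate 1, 2 or 3 or Col-0 replicate 1 or 3 (adjusted p 0.0632 to 0.172, edgeR), and the second without the line's replicate 1 or 3 or Col-0 replicate 1 (0.0590 to 0.105). In AT2G32760 (chromosome 2, plus strand), also named after its values were seen, 2 annotated introns share the 5′ site. The one ending at 13892577 was at 7.41% ± 6.42 in the line and 88.9% ± 19.2 in Col-0, and the one ending at 13892599, further downstream, at 92.6% ± 6.42 in the line and 9.52% ± 16.5 in Col-0 (adjusted p 0.0141 and 0.0221, edgeR), on only 23 gene reads in the line and 14 in Col-0. The upstream call was lost without Col-0 replicate 1 (adjusted p 0.246, edgeR), and the downstream one without the line's replicate 1, 2 or 3 or Col-0 replicate 2 (0.0691 to 0.203). Of the 17 annotated junctions used more, 3 shared their 5′ site with an annotated junction that was used less, and in all 3 the site used more was the downstream one. The 7 unannotated junctions used less did not all lie upstream: in CLPC1 (AT5G50920, chromosome 5, minus strand), a chaperone of the chloroplast stroma named after its values were seen, a site 4 bases downstream was at 0.482% ± 0.0399 in the line and 0.930% ± 0.111 in Col-0 (adjusted p 0.0423, edgeR). That call was lost without the line's replicate 1, 2 or 3 or Col-0 replicate 1 or 3 (adjusted p 0.0804 to 0.217, edgeR) and with DESeq2 (0.330).

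Annotated junctions rose in KINESIN-13A (AT3G16630), a microtubule motor, to 32.7% ± 4.93 in the line, against 9.78% ± 1.08 in Col-0, in ALDH11A3 (AT2G24270), a glyceraldehyde-3-phosphate dehydrogenase, to 12.9% ± 2.69 against 1.93% ± 0.845 in Col-0, and in D2HGDH (AT4G36400), which oxidises hydroxyglutarate, to 20.8% ± 4.34 against 1.25% ± 1.10 in Col-0 (adjusted p 0.000892, 0.00112 and 0.00199, edgeR). Unannotated junctions fell in AT1G68935 to 48.0% ± 3.12 in the line, against 90.9% ± 7.95 in Col-0, and in Tudor1 (AT5G07350), an RNA-binding protein of stress granules, to 5.52% ± 1.16 against 13.9% ± 2.20 in Col-0 (adjusted p 0.00158 and 0.0186, edgeR). The junction of Tudor1 ends 5 bases upstream of the annotated one, which was at 80.7% ± 1.92 in the line and 76.9% ± 4.39 in Col-0 and did not pass the test (adjusted p 0.832, edgeR). The call in Tudor1 was lost without the line's replicate 1 or 3 or Col-0 replicate 1 or 2 (adjusted p 0.106, 0.137, 0.0860 and 0.0786, edgeR). The call of the unannotated junction of AT5G11580 was lost without the line's replicate 1 or 3 (adjusted p 0.0519 and 0.0827, edgeR).

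Clock genes were examined as a list because the series concerns the clock. Of 24 clock genes, 20 had a tested junction. Of their 167 junctions, 5 were used more and 1 less, in 5 genes, which is 3.59% against 1.14% of all junctions. Besides UBP13, these were LNK2, LHY, TOC1 and PRR7. The lists were drawn up with earlier results of these data known, so their counts are a description.

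LNK2 (AT3G54500, chromosome 3, minus strand), a transcriptional coactivator of the clock, had an unannotated intron from 20178782 to 20178940 that ended 23 bases downstream, at 35.1%, 28.0% and 25.3% in the line and 0%, 0.901% and 0% in Col-0 (change in log2 odds 7.11, SE 0.78, adjusted p 3.91e-06, edgeR). LHY (AT1G01060, chromosome 1, minus strand), a morning transcription factor of the core loop, had an intron from 37346 to 37568 that ended 53 bases downstream. It was at 6.76%, 8.28% and 7.63% in the line and at 0 in each Col-0 library (37 of 495 reads against 0 of 473), at least 11.8-fold higher (adjusted p 0.000216, edgeR). In both genes each library of the line was above each of Col-0.

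TOC1 (AT5G61380, chromosome 5), an evening repressor of LHY, had a site 61 bases downstream at 13.0%, 9.84% and 13.95% in the line and 0%, 0% and 0.82% in Col-0 (change in log2 odds 5.11, SE 0.75, adjusted p 0.000364, edgeR). The annotated junctions paired with the sites in LNK2, LHY and TOC1 had means of 9.97%, 76.3% and 70.9% in the line and 26.3%, 82.4% and 86.9% in Col-0, and none passed the test (adjusted p 0.132, 0.682 and 0.0777, edgeR). All 3 passed it with reads at the same splice site as the denominator. There each is the mirror of the unannotated junction's own test, so these passes add nothing to the called rises. In PRR7 (AT5G02810, chromosome 5), another repressor of the loop described after its values were seen, the annotated intron from 640756 to 640888 rose to 81.7% ± 2.28 in the line, against 58.7% ± 1.25 in Col-0 (change in log2 odds 1.65, SE 0.34, adjusted p 0.00866, edgeR). That call was lost without the line's replicate 2 or 3 (adjusted p 0.0625 and 0.0595, edgeR). The levels of the clock genes did not pass the test: 0 of 21 tested were called, and 1 had an unadjusted p under 0.05. That gene was LCL1 (AT5G02840), a relative of LHY, at 16.6 ± 7.57 CPM in the line and 37.6 ± 14.1 CPM in Col-0 (log2 fold change -1.16, SE 0.54, unadjusted p 0.0463, adjusted p 0.561, edgeR), with all libraries of the line below all of Col-0. CCA1 and LHY stood at 172 ± 17.9 and 234 ± 26.2 CPM in the line and 120.9 ± 6.66 and 196 ± 49.9 CPM in Col-0.

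Genes of RNA turnover and small RNAs carried further sites. Of the list of nonsense-mediated decay and exon junction proteins, 3 of 71 junctions were used more (4.23%, against 1.14% called in either direction among all junctions). UPF1 (LBA1, AT5G47010), the helicase of nonsense-mediated decay, had a site 32 bases downstream at 4.07%, 4.46% and 4.51% in the line and at 0 in Col-0 (70 of 1601 reads against 0 of 1259), at least 18.3-fold higher (adjusted p 1.69e-05, edgeR). A second site in UPF1, described after its values were seen and 27 bases downstream in another intron, was at 4.56% ± 0.960 in the line and 0.105% ± 0.183 in Col-0 (adjusted p 0.000128, edgeR). Of the list of small RNA biogenesis, 3 of 125 junctions were used more (2.40%, against the same 1.14%). DCL1 (AT1G01040), which cuts microRNA precursors, was at 11.1%, 11.0% and 10.2% in the line and at 0 in Col-0 for a site 15 bases downstream, at least 9.87-fold higher (adjusted p 0.000247, edgeR). DCL4 (AT5G20320), which makes short interfering RNAs, had a site at 14.6% ± 1.06 in the line and 0.709% ± 1.23 in Col-0, and AGO1 (AT1G48410), which is guided by microRNAs, 1 at 0.890% ± 0.259 in the line and none in 3217 reads of Col-0 (at least 9.53-fold higher; adjusted p 5.50e-05 for DCL4 and 0.000194 for AGO1, edgeR).

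In the list of light signalling, 1 of 86 junctions was used more (1.16%), a site 148 bases downstream in SPA1 (AT2G46340), a suppressor of phytochrome A signalling, at 1.03% ± 0.0686 in the line and none in Col-0 (at least 7.83-fold higher; adjusted p 0.000666, edgeR). Of 78 junctions of SR proteins, a family of splicing regulators, 1 was used less (1.28%). It lies in RS41 (AT5G52040) and was at 4.36% ± 0.516 in the line and 24.5% ± 7.63 in Col-0 (adjusted p 0.0211, edgeR), on 90 gene reads in the line and 194 in Col-0. That call was lost without the line's replicate 1, 2 or 3 (adjusted p 0.126, 0.0846 and 0.107, edgeR) and with DESeq2 (adjusted p 0.210). No junction was called among the 19, 16, 39 and 51 tested in splicing factors that set the clock's period, the MOS4-associated complex, factors that recognise the 3′ site and the branch point, and second-step factors with PRP8. None was called among 30 of ethylene signalling either. With so few junctions tested, a list without a call is not shown to differ from the background of 1.14%.

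The question whether the transgene changes splicing in xct-1 was asked directly. Of the 50590 junctions, 0 were called between the line and xct-1 (0%) by edgeR and 0 by DESeq2, with 2288 at an unadjusted p under 0.05 in edgeR and a smallest adjusted p of 0.984. In the authors' deposited table of the same pair, which is coded as xct-1 over the line, 0 of 43968 junctions had an adjusted p under 0.05, and 3 of 90114 features did, all exon bins of AT5G41740. When junctions with as little as 1 read were admitted, edgeR called 151 of 100911, of which 140 were used more in the line. With minimums of 10 and 50 reads it called 0.

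The values of the line lay close to those of xct-1. Over the 374 unannotated junctions used more against Col-0, the median usage was 5.65% in the line and 5.03% in xct-1, and the libraries of both overlapped in 329. Over the 179 annotated junctions used less, it was 79.2% in the line and 79.96% in xct-1, with overlap in 151. The log2 odds of the line minus xct-1 had a median of 0.08 over the 374 (quartiles -0.10 and 0.36) and of 0.13 over all junctions tested. These junctions were chosen with the libraries of the line, so the medians and overlaps are a description. Overlap was not counted over all junctions tested, so the overlap counts alone do not show closeness. For single genes the difference was 0.08 (SE 0.34) in UBP13, 0.11 (SE 0.29) in TIC, 0.28 (SE 0.43) in LHY and -0.32 (SE 0.44) in TOC1; a p that misses the threshold does not show that both genotypes act alike. Over the same 374 junctions the median was 10.51% in xct-2, 0.139% in the xct-2 XCT::XCT line and 0% in prl1-2. Differences between the line and these genotypes were not tested.

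Gene levels and exon bins gave no call. Of 10810 genes, 0 were called between the line and Col-0 (0%) by edgeR and 0 by DESeq2, with 895 at an unadjusted p under 0.05 in edgeR. Of 31056 exon bins, 0 were called (0%) by edgeR and 0 by DESeq2, with 1843 at an unadjusted p under 0.05. The genes with the smallest p were AT4G24380 at 21.9 ± 13.7 CPM in the line and 2.29 ± 2.54 CPM in Col-0, AT4G05160 at 25.5 ± 4.68 CPM in the line and 62.8 ± 11.0 CPM in Col-0, and AT4G23050 at 146 ± 17.1 CPM in the line and 55.5 ± 10.0 CPM in Col-0 (SD, n = 3 each; adjusted p 0.561 each, edgeR). AT4G23050 is also 1 of the 6 genes named above for an annotated intron that lost use. Of the exon bins, the smallest p belonged to D2HGDH, at 79.2% ± 4.34 in the line and 98.8% ± 1.10 in Col-0, then to AT1G52510 and ABCC13 (adjusted p 0.762, 0.762 and 0.773, edgeR).

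The levels of the genes with a called rise were described as a group. The 303 genes with a called unannotated rise had a median log2 fold change of 0.49 in the gene count of the line against Col-0, and 4 had an unadjusted p under 0.05. All 10810 genes had a median of -0.17. The median over all genes rose with the number of tested annotated junctions. Among genes with 10 or more it was 0.50 over 231 genes with such a rise and 0.47 over all 1512. Among genes with 5 to 9 it was 0.45 over 52 with such a rise and 0.14 over all 1751. Among genes with fewer than 5 it was 0.62 over 20 with such a rise and -0.42 over all 7547. Junction reads per gene read averaged 10.7 in the line and 9.41 in Col-0, with overlapping libraries, and their part in these levels was not tested.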

How the data were processed

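PacBio Iso-Seq libraries of whole seedlings were analysed from the authors' deposited raw counts, 1 file per library, with 334524 features: 32436 genes or loci, 170526 exon bins, 127555 annotated and 4007 unannotated junctions. The submitters' processing notes name minimap2 2.17 and the build TAIR10. No source used here gives their roles, the counting settings or the way unannotated junctions were found. Loci that join several genes (1.43% of reads) were left out of usage tests, and junction counts exceeded the gene count in 5.74% of values above 0, where usage was set to 100%. An adjusted p-value from the authors' deposited comparison of xct-1 and the line was used only where named.

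For junctions and exon bins, edgeR 4.0.16 (R 4.3.3) fitted reads with the feature and the gene's other reads, over all 18 libraries, in a model of library effects plus usage by genotype. Each side needed 20 reads in total. Genes were fitted with TMM scaling, and CPM use the scaled library sizes. Differences of usage are log2 odds, and SE is the change divided by the root of F. P-values were adjusted by Benjamini-Hochberg over all features, and whole-library shares were compared by two-sided exact permutation. The code was checked on simulated counts. DESeq2 1.42.0, other filters, denominators, a replicate block, the junctions per read as a covariate and leaving out each library were alternatives.

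The labels call the replicates independent biological ones, and no 2 libraries of a genotype agreed within sampling noise (lowest chi-square per degree of freedom 1.54). Floors of 3 reads cover counting error only, since the files give no molecule counts. Names come from the RefSeq TAIR10.1 gene table (31527 of 32209 gene IDs matched). Junctions were named by rule: the 10 unannotated rises of smallest p, the 5 largest rises in usage, the 6 annotated falls of smallest p in other genes, 3 calls each in the rarer directions, and the call of smallest p in each of up to 4 genes from each of 14 gene lists. Each set took at most 1 junction per gene, and the 10 rises and 6 falls only junctions whose libraries did not overlap. Partner junctions are described beside some of them, and other junctions are said to be named or described after their values were seen. Of the partners left out, those in ATH13, EMB2753, AT4G38350, CEV1, KAC1 and AT4G11670 were called used less (adjusted p 4.99e-08 to 0.0100, edgeR). Those in TIC, AT5G56850, UPF1 (first site), DCL4, DCL1, AGO1 and SPA1 were not called (adjusted p 0.0947 to 0.551, edgeR). The members and lists were chosen with earlier results of these data known. The result for 1 listed gene is not reported here.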

Additional observations from a re-analysis of the deposited data

How the results depend on the processing

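Against Col-0, the count of 577 called junctions became 1207 of 8040 tested with reads at the same splice site as the denominator, and 1255 of 100911 when 1 read sufficed. Leaving out single libraries gave 443 to 1027, the highest without Col-0 replicate 3. The other alternatives stayed within 1.5 times: 449 with the gene count as offset, 434 with DESeq2, 793 with junctions per read as a covariate and 452 of 25721 in a fit of 6 libraries. Against xct-1, the count of 0 became 1 with the offset, 4 with the same-site denominator and 151 when 1 read sufficed, and it was 0 without each library in turn. Genes called became 5 without a filter and 18 with the covariate, and 0 without each library in turn. Exon bins called were 0 in all alternatives run. The difference in unannotated share, 0.269 points of junction reads, was 3.89 points of gene reads, where the libraries overlapped, and 0.194 to 0.374 without single libraries. The cause of these shifts was not tested.

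None of the 37 junctions named by rule reversed. Those that lost the call were AT2G33435, AT5G11580, RS41 and Tudor1; beside the values given with them, DESeq2 gave an adjusted p of 0.0828 for AT5G11580, a minimum of 1 read 0.0685 for RS41 and 0.0580 for Tudor1, and 6 libraries 0.0692 and 0.106. The same alternatives were run for 19 further list calls and partner junctions. The annotated partner of GLU1, whose log2 odds changed by 0.15 without a call, turned to -1.35 with the same-site denominator (adjusted p 4.97e-20, edgeR), to -0.16 with the covariate and to -0.29 without Col-0 replicate 2, the lowest without a single library, where the highest was 0.56 without Col-0 replicate 3. The annotated partners in LNK2, LHY and TOC1 passed with the same-site denominator (adjusted p 1.13e-24, 1.96e-09 and 3.15e-10, edgeR). Under it they mirror the tests of their unannotated junctions, with the same adjusted p, and so add nothing to them. The partner of LNK2 also passed with the replicate block (0.0453), and that of TOC1 with a minimum of 50 reads (0.0267) and with the covariate (0.0320). Calls lost beside those given with the gene were the annotated junctions of AT5G11580 (0.0838), CTC1 (0.268) and AT2G32760 (0.127, downstream) with the offset, that of AT2G32760 upstream with the covariate (0.0998), that of CTC1 with 6 libraries (0.0706), the unannotated 1 of CTC1 with DESeq2 (0.210), minimums of 10 and 1 read (0.0545 and 0.0857) and 6 libraries (0.0549), and CLPC1 with a minimum of 10 reads (0.0665), the replicate block (0.0529) and 6 libraries (0.109). The deviations of same-numbered libraries of the line and Col-0 in gene levels had correlations of 0.37, -0.17 and 0.40. With 3 libraries per genotype these cannot decide whether a replicate number marks a shared batch, and the labels name none. Replicate 2 had the fewest junction reads per gene read in Col-0, xct-1, xct-2 and prl1-2 (7.93, 7.05, 7.53 and 7.85). It did not in the line or in xct-2 XCT::XCT (11.0 and 10.9). With the replicate block 664 junctions were called, and 0 against xct-1. The difference in share stays at 0.269 points by construction, as each genotype has 1 library per replicate number. Depth limits genes such as XCT, AT2G32760 and RS41.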
